A study of Mus musculus with 8 samples.

Results

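The 9 genes Slc1a2, Slc1a3, Glul, Slc6a11, Kcnj10, Atp1b2, Slc4a4, Aqp4 and Gja1 encode the proteins through which astrocytes take up transmitters, buffer potassium and acid, move water and couple to each other. They were picked out by symbol among the 32285 genes measured, with no threshold on a measured value. All 9 were found in the data. The data are single-nucleus RNA counts from the ventricular-subventricular zone (V-SVZ) of 8 mice at postnatal day 90, with 1 library per mouse. The V-SVZ is the stem cell niche along the lateral ventricle, where neural stem cells (NSCs) share most of their transcripts with astrocytes. The 4 control mice are Tsc2 wt/wt and the 4 others are Tsc2 mut/mut, homozygous for a conditional Tsc2 allele, and mice of both genotypes carried the Rosa26 tdTomato reporter that Cre switches on. The study delivered Cre as an electroporated CAG-CRE plasmid in neonates or as Nestin-CRE-ERT2 with 4-hydroxytamoxifen, and which of these applies to the nuclei is not given in the sources used here. From each mouse 100000 tdTomato+ nuclei were sorted, and a mouse given by its genotype and number below is 1 library. Nothing beyond the labels states how the mice of one genotype relate to each other, so p-values measure the spread between these samples.

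Glutamate released by neurons is taken up mainly by astrocytes through Slc1a2 (GLT-1) and Slc1a3 (GLAST), and Slc1a3 is also a long-used marker of V-SVZ stem cells and radial glia. Glul, glutamine synthetase, turns the glutamate into glutamine, which returns to neurons, and Slc6a11 (GAT-3) takes up GABA. Potassium released with firing is cleared through the inward rectifier channel Kcnj10 (Kir4.1) and the sodium pump, of which Atp1b2 is the astrocytic beta subunit. Slc4a4 carries sodium and bicarbonate and buffers pH, Aqp4 is the water channel of astrocyte endfeet, and Gja1 (connexin 43) forms the gap junctions that join astrocytes into a network. Several of these genes serve other cell types as well: Aqp4 and Gja1 are made by ependymal cells, and Glul and Kcnj10 by oligodendrocytes.

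Libraries held 11182335 to 36773832 unique molecular identifiers (UMIs), each a counted RNA molecule, and 1923 to 10153 barcodes per mouse had at least 300 genes detected, 37881 in all. The median kept barcode had 888 to 1324.5 UMIs, and 34.0% to 44.6% of a mouse's UMIs came from mitochondrial genes. Barcodes were clustered without the 9 genes and without the other transport genes described below, and clusters were named from marker lists. This gave 1204 NSC/astrocyte-like nuclei of low mitochondrial share, called low-mitochondrial astrocyte-like nuclei here, 7826 mitochondria-rich astrocyte-like barcodes, whose cluster drew at least 25% of its UMIs from mitochondrial genes, and 25844 other mitochondria-rich barcodes, which are kept together here whatever their markers. The latter came from 5 clusters: 1 without a name (9548 barcodes), 2 with excitatory neuron markers raised (8081 and 1263), 1 with striatal projection neuron markers (4482) and 1 with 9 of 12 microglia markers (2470). The cluster without a name also had 4 of 10 excitatory neuron markers raised. In the mitochondria-rich astrocyte-like cluster 13 of 20 NSC/astrocyte markers were raised. The smaller low-mitochondrial classes were microglia-like (782 nuclei), oligodendrocyte-like (711), choroid plexus-like (643), ependymal-like (323), inhibitory neuron or neuroblast-like (185), endothelial-like (151), oligodendrocyte progenitor-like (86), excitatory neuron-like (72) and mural or fibroblast-like (54). Among low-mitochondrial astrocyte-like nuclei Tsc2 mut/mut 4 stood apart, with 28 nuclei, a mitochondrial share of 23.1% against 3.26% to 8.55% in the other mice, and a median of 756.5 UMIs against 2117 to 5175. Any 2 libraries shared 1 to 15 kept barcode sequences. Tsc2 itself was at 19.3 to 22.3 counts per 1000000 (CPM) in Tsc2 wt/wt and 15.2 to 21.5 CPM in Tsc2 mut/mut over all kept barcodes, and counts at the 3′ end do not check the deletion.

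Levels are given as CPM of the nuclear-encoded UMIs summed over a class in 1 mouse, and as the mean ± SD over the mice with at least 10 barcodes of that class. Of the 9 genes, 8 had their highest level in an astrocyte-like class, Slc4a4 in the low-mitochondrial nuclei and Slc1a2, Glul, Slc6a11, Kcnj10, Atp1b2, Aqp4 and Gja1 in the mitochondria-rich barcodes. Slc1a3 had its highest mean in microglia-like nuclei, where its range over mice overlapped that of astrocyte-like nuclei. Within the mitochondria-rich barcodes all 9 genes were higher in the astrocyte-like ones than in the others in 8 of 8 mice, against 21% of the 4514 genes compared, and none was lower in every mouse, against 15.9%. The ratio of the mean levels was lowest for Kcnj10, next lowest for Glul at 1.47 and Slc1a2 at 1.49, and highest for Slc6a11 at 3.24 and Gja1 at 3.64. These differences between classes are descriptions with no test, since the classes were built from the same barcodes.

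**Figure D1:**
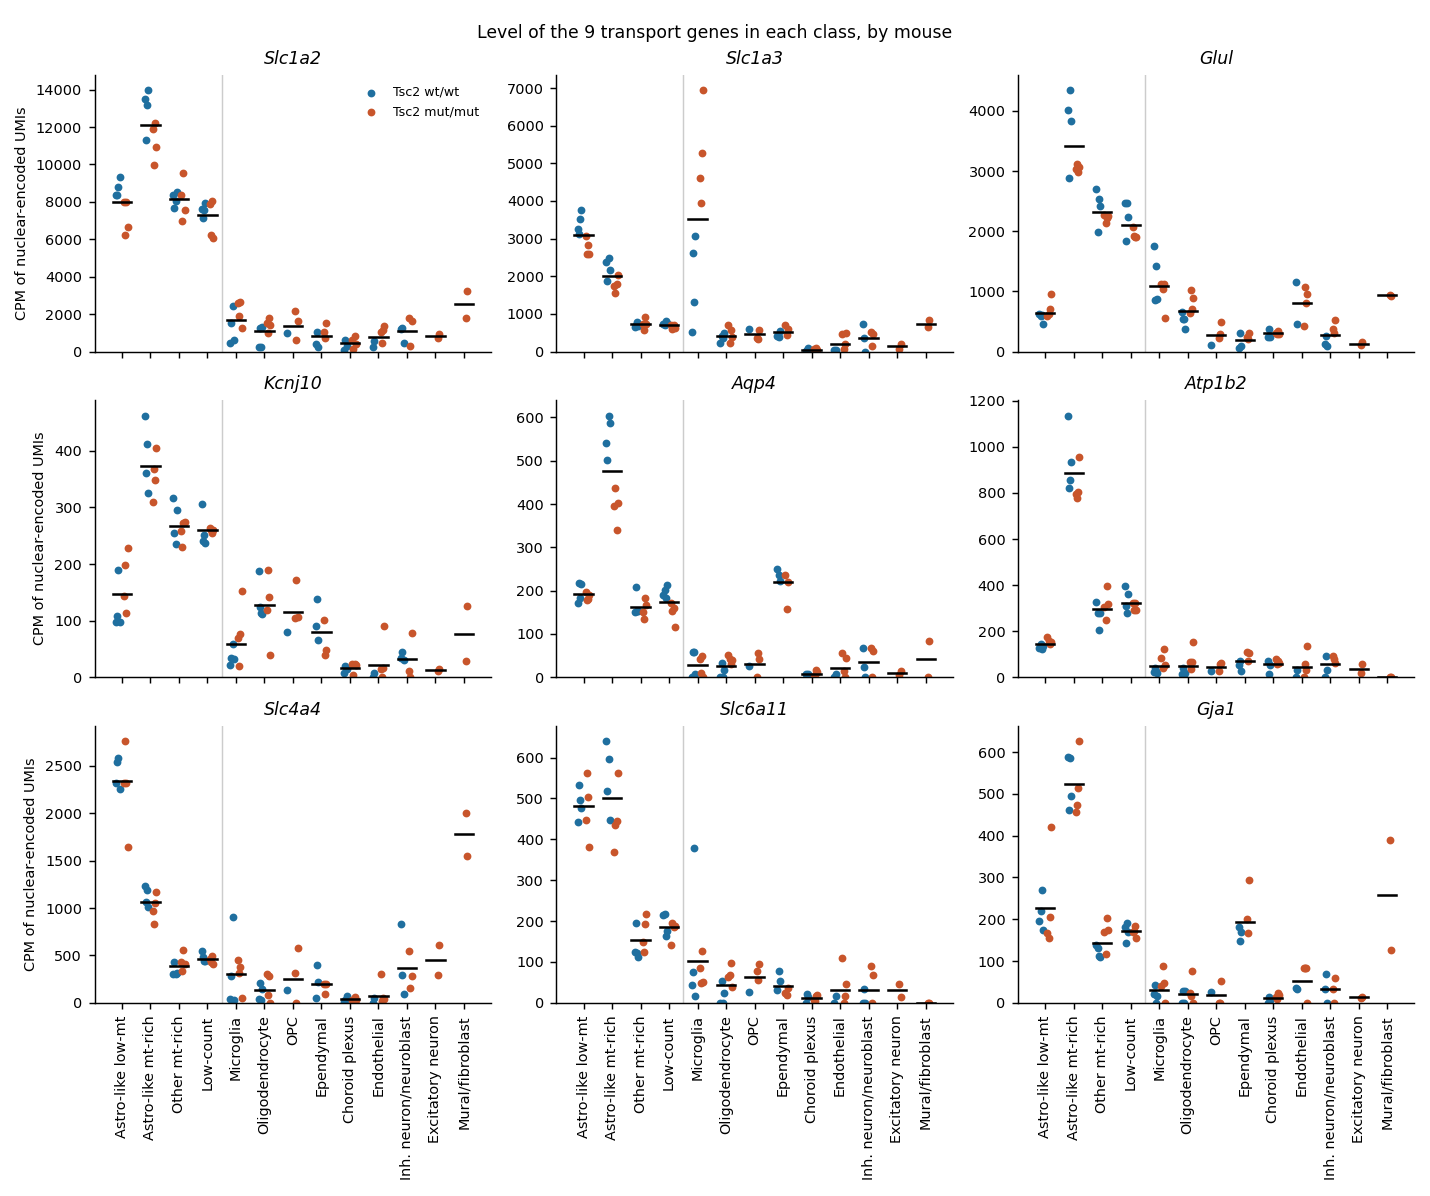
Level of each of the 9 genes by class of barcode, in CPM of nuclear-encoded UMIs on a linear axis from 0, with 1 point per mouse coloured by genotype and a line at the mean (mt, mitochondrial). Within every mouse the mitochondria-rich astrocyte-like barcodes lay above the other mitochondria-rich barcodes for all 9 genes, though for Kcnj10 the points overlap between mice. The Slc1a3 points of the microglia-like nuclei reached from 511 to 6941 CPM.

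Between the astrocyte-like classes the 9 genes went in different directions. Of the 9, 6 were lower in the low-mitochondrial nuclei than in the mitochondria-rich barcodes of every mouse (Slc1a2, Glul, Kcnj10, Atp1b2, Aqp4 and Gja1), against 39.3% of the 3262 genes compared, and 2 were higher in every mouse (Slc1a3 and Slc4a4), against 40.9%. At a clustering resolution of 0.4 Slc1a3 was higher in 6 of 8 mice, with a mean log2 ratio of 0.17 in place of 0.63, and Slc4a4 in 7 of 8, with 0.65 in place of 1.12. These counts are set against a background in which most genes differ in every mouse, so they describe the 9 genes and do not set them apart. Against the other mitochondria-rich barcodes, Slc1a3, Slc4a4 and Slc6a11 were higher in the low-mitochondrial astrocyte-like nuclei of every mouse (35.2% of 5105 genes) and Glul, Kcnj10 and Atp1b2 were lower (40.1%). The same genes were higher and lower in every mouse when the low-mitochondrial nuclei were set against low-count barcodes, those with at least 100 and under 200 genes, which were not kept or clustered (backgrounds 31.1% and 35.8% of 7277 genes). Aqp4, Gja1 and Slc1a2 went neither way in every mouse in either of these comparisons.

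Slc1a2 (chromosome 2, 102658659 to 102790784, plus strand, GRCm38), the main glutamate transporter of the forebrain, was at 7970 ± 1029 CPM in the low-mitochondrial astrocyte-like nuclei, 12122 ± 1377 in the mitochondria-rich astrocyte-like barcodes and 8134 ± 774 in the other mitochondria-rich barcodes (SD, n = 8 mice). The 2 last ranges did not overlap, and the low-mitochondrial nuclei overlapped the other mitochondria-rich barcodes. Low-count barcodes held 7307 ± 768 CPM, and in 7 of 8 mice the low-mitochondrial nuclei were above them. Among classes found in at least 3 mice, microglia-like nuclei followed at 1677 CPM, oligodendrocyte progenitor-like nuclei at 1357 CPM and oligodendrocyte-like nuclei at 1100 CPM, each overlapping the next. Mural or fibroblast-like nuclei, from 2 mice, were at 2524 CPM. The mean log2 ratio of low-mitochondrial to mitochondria-rich astrocyte-like levels within a mouse was -0.61 ± 0.09 (SD, n = 8), and it became 0.13 when mitochondrial UMIs were counted in the total.

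Slc1a3 (chromosome 15, 8634124 to 8710764, minus strand), the glutamate transporter shared by radial glia, stem cells and astrocytes, was at 3097 ± 415 CPM in the low-mitochondrial astrocyte-like nuclei, 2001 ± 325 in the mitochondria-rich ones, 724 ± 98.0 in the other mitochondria-rich barcodes and 706 ± 64.5 in low-count barcodes. The astrocyte-like classes did not overlap each other, and the lower one did not overlap the other mitochondria-rich barcodes. Ependymal-like nuclei held 518 CPM.

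In microglia-like nuclei Slc1a3 was at 511, 2625, 1308 and 3058 CPM in Tsc2 wt/wt 1 to 4 and at 4601, 3942, 5274 and 6941 CPM in Tsc2 mut/mut 1 to 4. The 4 Tsc2 mut/mut mice were all above the 4 Tsc2 wt/wt mice. Mean Slc1a2 was also higher in Tsc2 mut/mut there, at 2101 CPM against 1253 CPM, but the genotypes overlapped. By mouse it was at 469, 1531, 2413 and 598 CPM in Tsc2 wt/wt and at 2587, 1879, 2663 and 1276 CPM in Tsc2 mut/mut. The ratio of Slc1a3 to Slc1a2 UMIs had a median of 1.88 over mice in microglia-like nuclei (0.542 to 5.44), against 0.388 (0.355 to 0.416) in low-mitochondrial astrocyte-like nuclei and 0.0969 (0.0883 to 0.107) in low-count barcodes. Its range in microglia-like nuclei lay above that of both. The lowest and highest of these ratios came from Tsc2 wt/wt 3 and Tsc2 mut/mut 4, which held only 21 and 16 microglia-like nuclei.

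Glul (chromosome 1, 153899944 to 153909723, plus strand), glutamine synthetase, showed one of the widest gaps between the astrocyte-like classes. It was at 646 ± 144 CPM in the low-mitochondrial nuclei and at 3411 ± 562 CPM in the mitochondria-rich barcodes, 5.28 times as much. The other mitochondria-rich barcodes held 2316 ± 228 CPM and low-count barcodes 2102 ± 256 CPM. Some low-mitochondrial classes found in at least 3 mice also had higher means than the astrocyte-like nuclei. They were microglia-like nuclei at 1095 CPM, endothelial-like nuclei at 812 and oligodendrocyte-like nuclei at 676. Each of these classes overlapped the next over mice, and choroid plexus-like nuclei, at 301 CPM, lay below the astrocyte-like nuclei without overlap.

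Slc6a11 (chromosome 6, 114131241 to 114249952, plus strand), the GABA transporter, was at 481 ± 56.7 CPM in the low-mitochondrial nuclei and 501 ± 92.8 CPM in the mitochondria-rich astrocyte-like barcodes, which overlapped. It was higher in the low-mitochondrial nuclei in 5 of 8 mice, with a mean log2 ratio of -0.05 ± 0.35. The other mitochondria-rich barcodes held 155 ± 40.8 CPM and did not overlap either class.

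Kcnj10 (chromosome 1, 172341210 to 172374085, plus strand), the potassium channel, was at 147 ± 51.8 CPM in the low-mitochondrial astrocyte-like nuclei, 374 ± 50.2 in the mitochondria-rich ones and 267 ± 29.1 in the other mitochondria-rich barcodes. The 2 mitochondria-rich classes overlapped, and both were above the nuclei. Oligodendrocyte-like nuclei, at 128 ± 48.1 CPM, overlapped the low-mitochondrial astrocyte-like nuclei.

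Atp1b2 (chromosome 11, 69599736 to 69605942, minus strand), the beta subunit of the sodium pump, was at 144 ± 17.9 CPM in the low-mitochondrial nuclei, 885 ± 120 CPM in the mitochondria-rich astrocyte-like barcodes and 294 ± 56.9 CPM in the other mitochondria-rich barcodes. No 2 of these overlapped, and the next class, ependymal-like nuclei, lay below all of them. The ratio of the mitochondria-rich to the low-mitochondrial astrocyte-like mean was 6.13, the largest of the 9 genes.

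Slc4a4 (chromosome 5, 88886818 to 89239653, plus strand), the sodium bicarbonate cotransporter, had the opposite order. It was at 2344 ± 331 CPM in the low-mitochondrial astrocyte-like nuclei, 1067 ± 132 in the mitochondria-rich ones, 387 ± 88.0 in the other mitochondria-rich barcodes and 463.5 ± 40.8 in low-count barcodes. The first 3 did not overlap. Mural or fibroblast-like nuclei, which only 2 mice held in number, were at 1778 CPM.

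Aqp4, the water channel, was at 192 ± 16.8 CPM in the low-mitochondrial astrocyte-like nuclei and 476 ± 96.5 CPM in the mitochondria-rich ones. Ependymal-like nuclei, whose cells line the ventricle, stood between them at 220 ± 32.8 CPM and overlapped the astrocyte-like nuclei, which in turn overlapped the other mitochondria-rich barcodes at 163 ± 22.9 CPM. Gja1 (chromosome 10, 56377330 to 56402513, plus strand), connexin 43, was at 226 ± 86.4 CPM in the low-mitochondrial astrocyte-like nuclei, 525 ± 65.6 CPM in the mitochondria-rich ones and 193 ± 51.9 CPM in ependymal-like nuclei. Its highest value in the low-mitochondrial nuclei, 420 CPM, was that of Tsc2 mut/mut 4 and rested on 11 UMIs. Without that mouse the mean was 198 ± 39.3 CPM (n = 7). Glul and Kcnj10 were also highest in that mouse, and without it they were at 601 ± 78.2 and 135 ± 43.0 CPM.

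The ratio between the astrocyte-like classes went with the length of the gene. Atp1b2 (6.21 kb from first to last annotated base) and Glul (9.78 kb) were the shortest genes and had the mean log2 ratios farthest below 0, -2.53 ± 0.31 and -2.40 ± 0.44. Aqp4 (21.5 kb), Gja1 (25.2 kb) and Kcnj10 (32.9 kb) were at -1.25 ± 0.29, -1.24 ± 0.33 and -1.34 ± 0.47. Slc1a3 (76.6 kb) was at 0.63 ± 0.17, Slc6a11 (119 kb) at -0.05, Slc1a2 (132 kb) at -0.61 and Slc4a4, the longest gene at 353 kb, at 1.12 ± 0.35. Across the 9 genes Pearson's r between log10 gene length and the mean log2 ratio was 0.93 and Spearman's rho was 0.88. Both were 0.78 across the 3261 genes with a length in the same libraries. The median ratio of all genes moved from -2.81 under 10 kb to 2.29 at 100 kb or more, and in that last bin Slc1a2, Slc6a11 and Slc4a4 all lay below the median of genes of their length. Genes share libraries and depth and are not independent replicates, and the part of length in these differences was not tested.

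**Figure D2:**
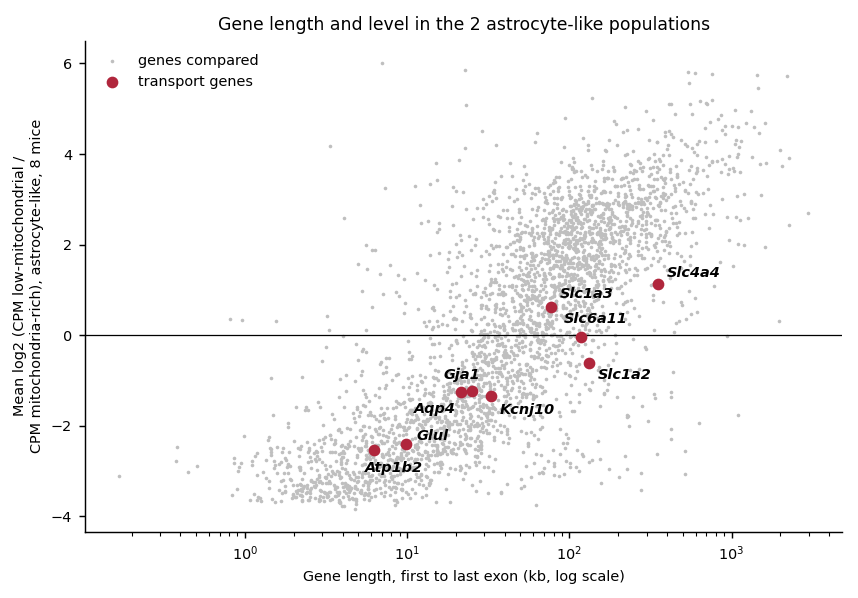
Mean log2 ratio of the level in low-mitochondrial to that in mitochondria-rich astrocyte-like barcodes, over 8 mice, against gene length in kb on a log axis. Grey points are the other genes compared, and the 9 genes run from Atp1b2 at the lower left to Slc4a4 at the upper right.

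The split by mitochondrial share was also made without clusters, by setting kept barcodes under 20% against those of 40% or more within each mouse. Of the 9 genes, 7 were lower in the barcodes under 20% by edgeR's quasi-likelihood test after Benjamini-Hochberg adjustment and mouse as a block, where 79% of 10545 genes differed and 39.3% were lower. The log2 differences were -2.92 (SE 0.25) for Glul, -2.62 (SE 0.22) for Atp1b2, -2.60 (SE 0.28) for Kcnj10, -2.26 (SE 0.35) for Slc1a2, -1.86 (SE 0.27) for Aqp4 and -1.59 (SE 0.26) for Gja1. Slc6a11, at -0.80 (SE 0.32, adjusted p = 0.0344), was at -0.36 and no longer called when the limits were 10% and 45%, and the call was also lost without Tsc2 wt/wt 1 or without Tsc2 mut/mut 1, 2 or 3 (adjusted p = 0.058 to 0.073). Slc1a3 at -0.04 (SE 0.30) and Slc4a4 at 0.14 (SE 0.37) did not pass the test. The barcodes under 20% also hold the microglia-like, oligodendrocyte-like and choroid plexus-like nuclei, so these values mix cell type with mitochondrial share.

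Within astrocyte-like barcodes alone the level could be followed over the mitochondrial share. Slc4a4 was at 2569 ± 380 CPM in barcodes under 5% (n = 7 mice) and at 650 ± 111 CPM in those of 50% or more (n = 8). Slc1a3 went from 3292 ± 337 to 1365 ± 224 CPM over the same range. Glul went the other way, from 518 ± 72.4 CPM to 3749 ± 564 CPM at 30% to 40%, and stayed at 3092 ± 542 CPM at 50% or more. Atp1b2, Aqp4, Gja1 and Slc6a11 were highest in the middle: Atp1b2 went from 128 ± 30.5 CPM under 5% to 1258 ± 189 CPM at 30% to 40%, and was at 515 ± 67.0 CPM at the top of the range. These means are descriptions, since the same clusters chose the barcodes.

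**Figure D3:**
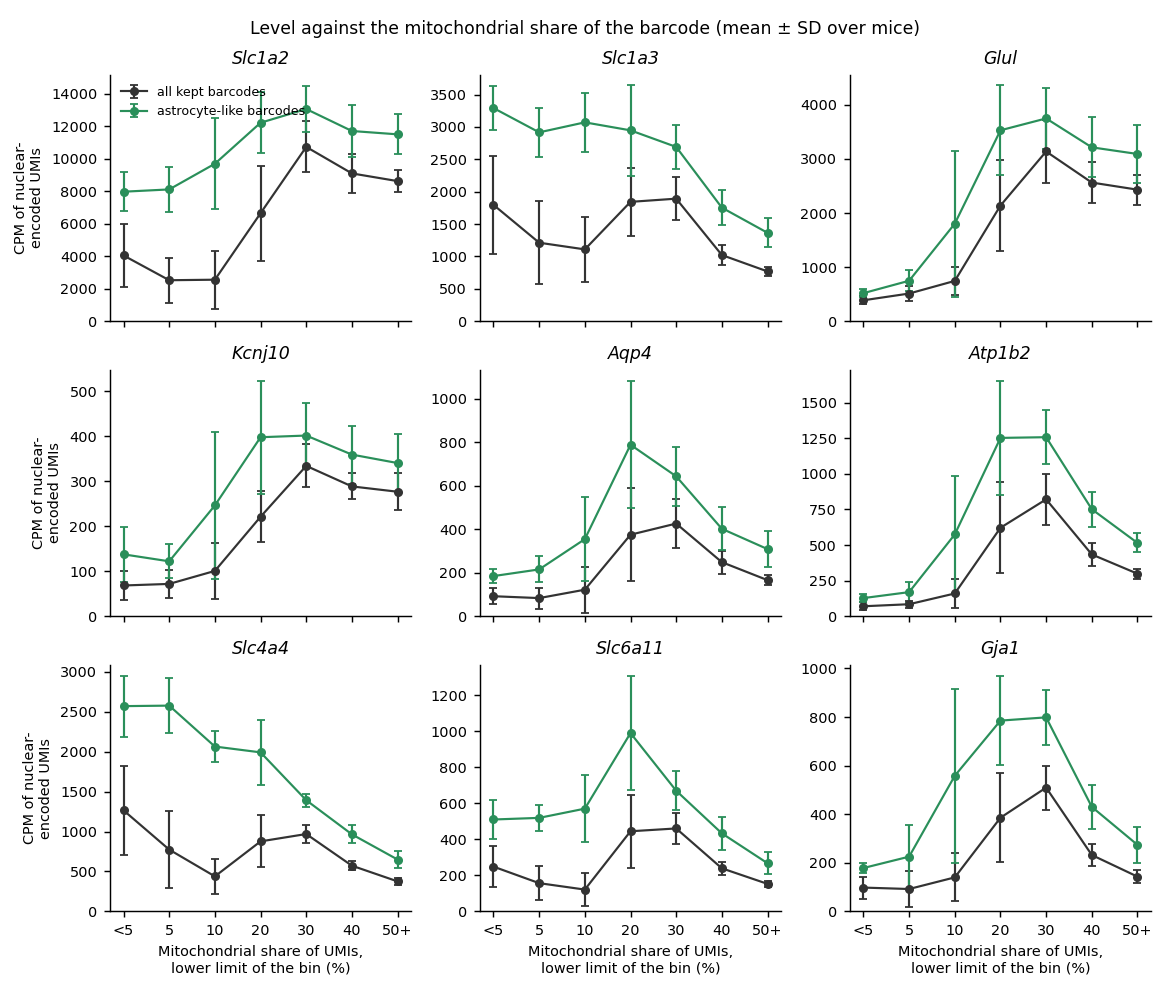
Level of the 9 genes in CPM of nuclear-encoded UMIs against the barcode's mitochondrial share in percent, in bins, with the mean over mice and the SD as bars, for all kept barcodes and for astrocyte-like barcodes. Slc4a4 and Slc1a3 lines of the astrocyte-like barcodes run down from left to right, and the Glul line runs up to 3749 CPM at 30% to 40%.

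A barcode of the same depth held fewer of the 9 genes outside the astrocyte-like classes. Barcodes were thinned to 300 nuclear-encoded UMIs, and those with fewer were left out. A mitochondria-rich astrocyte-like barcode then held 2.92 ± 0.19 of the 9 genes, a low-mitochondrial astrocyte-like nucleus 2.38 ± 0.10 and another mitochondria-rich barcode 1.92 ± 0.11 (SD, n = 8 mice). Microglia-like nuclei held 1.19 ± 0.40 and oligodendrocyte-like nuclei 0.618. Without thinning the order of the astrocyte-like classes turned round, with 5.48 genes in a low-mitochondrial nucleus and 4.12 in a mitochondria-rich barcode, whose depths differ. Slc1a2 had a UMI in 84.5% of thinned low-mitochondrial astrocyte-like nuclei, 93.6% of mitochondria-rich ones and 85.3% of other mitochondria-rich barcodes, against 24.0% of oligodendrocyte-like nuclei. Slc4a4, at 43.6% and 25.2% in the astrocyte-like classes, had a UMI in 1.21% of oligodendrocyte-like nuclei.

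At a clustering resolution of 0.8 the low-mitochondrial astrocyte-like nuclei fell into 3 sub-clusters, and the 9 genes were not at one level over them. The first (688 nuclei, led by Luzp2) had the highest Slc1a2 and Slc1a3, at 9142 and 3415 CPM. The second (349 nuclei) was led by Tnc and Thbs4, with the haemoglobin genes Hba-a1, Hbb-bs and Hba-a2 and then C4b and Gfap among its top 10 genes. It had the lowest Slc4a4 and Slc6a11, at 1613 and 302 CPM, and held 26 of the 28 nuclei of Tsc2 mut/mut 4. The third had 167 nuclei, with Gria1 and Adcy8 among its top 10 genes, and its levels come from the 5 mice with at least 10 of its nuclei. There Slc4a4 was at 4351, Slc6a11 at 1142 and Kcnj10 at 261 CPM, each the highest of the 3, and Slc1a2 was lowest at 3848 CPM. Mean Aqp4 lay between 183 and 218 CPM and mean Gja1 between 191 and 207 CPM, with a spread over mice in the second sub-cluster (SD 120 and 77.6 CPM) wider than these differences. The sub-clusters were drawn without these genes, and their levels are descriptions.

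Over 12 classes of pooled barcodes, the genes whose log2 level followed each of the 9 most closely were sought among 7879 genes. For Slc1a2 these were Dio2 (r = 0.99) and Ntsr2 (0.97), for Aqp4 Slc25a18 (0.97) and Mlc1 (0.96), for Slc6a11 Acsbg1 and Hapln1 (both 0.97), and for Atp1b2 Fjx1 (0.98) and Hsd11b1 (0.95). Kcnj10 was nearest to Asrgl1 (0.94), Slc4a4 to Igdcc4 (0.94), Gja1 to Blcap (0.93), Glul to Ssr3 (0.92) and Slc1a3 to Sat1 (0.89). Among the 9 themselves r lay between 0.29 for Slc4a4 with Glul and 0.92 for Slc6a11 with Slc1a2. The classes share libraries and differ in depth, so these are descriptions over 12 points.

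The genotypes were compared over mice, with each class summed per mouse. In low-mitochondrial astrocyte-like nuclei none of the 9 genes passed edgeR's quasi-likelihood test after Benjamini-Hochberg adjustment, where 0% of the 6019 genes tested did. At an unadjusted p under 0.05 there were 533 genes, with 1 of the 9 among them. DESeq2 called 49 genes, with none of the 9 among those. The largest difference was that of Slc1a3, whose levels were 3254, 3135, 3524 and 3752 CPM in Tsc2 wt/wt 1 to 4 and 3075, 2600, 2835 and 2597 CPM in Tsc2 mut/mut 1 to 4. All 4 Tsc2 mut/mut mice were below all 4 Tsc2 wt/wt mice, with a log2 difference of -0.37 (SE 0.17, adjusted p = 0.552). Slc1a2 did not overlap either, at 8385, 8356, 8782 and 9315 CPM in Tsc2 wt/wt and 8013, 6247, 7981 and 6683 CPM in Tsc2 mut/mut. Its log2 difference was -0.34 (SE 0.18, adjusted p = 0.613).

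Atp1b2 was the third gene without overlap, in the other direction, at 125, 143, 121 and 134 CPM in Tsc2 wt/wt and 175, 159, 145 and 153 CPM in Tsc2 mut/mut. Its log2 difference was 0.21 (SE 0.18, adjusted p = 0.830). Such a lack of overlap was seen in 3 of the 9 genes and in 6.86% of all genes tested. For Atp1b2 the value of Tsc2 mut/mut 4 came from 28 nuclei and only a few UMIs, so its lack of overlap is uncertain. The other 6 genes overlapped and lay between -0.22 for Gja1 and 0.25 for Kcnj10. Without Tsc2 mut/mut 4 the differences were -0.33 for Slc1a3, -0.29 for Slc1a2 and 0.21 for Atp1b2, with no call. Beside these, NSC/astrocyte markers in the class summed to 42230 to 50691 CPM in Tsc2 wt/wt and 30553 to 45136 CPM in Tsc2 mut/mut, with 8 of 20 higher in Tsc2 mut/mut, and 11 of 12 oligodendrocyte markers were higher there. Microglia markers were also higher in 11 of 12, and their sum, 56.0 to 76.9 CPM in Tsc2 wt/wt and 83.5 to 191 CPM in Tsc2 mut/mut, did not overlap, while 8 of 10 excitatory neuron markers were higher. The first sub-cluster, where Slc1a2 was highest, held 48 of 76, 143 of 248, 62 of 82 and 66 of 87 of the nuclei in Tsc2 wt/wt 1 to 4 and 144 of 251, 46 of 104 and 177 of 328 in Tsc2 mut/mut 1 to 3, and it held too few nuclei of Tsc2 mut/mut 4 to give a level. Within that sub-cluster Slc1a2 was at 9325 to 10041 CPM in Tsc2 wt/wt and 7802 to 8998 CPM in Tsc2 mut/mut 1 to 3. Atp1b2 was at 110 to 126 and 135 to 169 CPM in the same mice, and Slc1a3 overlapped. The share of all genes whose genotypes separate there was not counted, so these levels are descriptions. The part of the markers in these differences was not tested. The low-mitochondrial astrocyte-like nuclei also separated by genotype in depth and mitochondrial share. Their median was 3832 to 5175 UMIs in Tsc2 wt/wt and 756.5 to 3052.5 in Tsc2 mut/mut. The share was 3.26% to 6.43% and 6.78% to 23.1%. In astrocyte-like barcodes under 5% and of 5% to 10%, Atp1b2 was at 128 and 170 CPM, Slc1a3 at 3292 and 2916 and Slc1a2 at 7967 and 8108. The part of depth and share was not tested. A summed level cannot tell fewer barcodes of the cells that make a transcript from less of it in each.

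**Figure D4:**
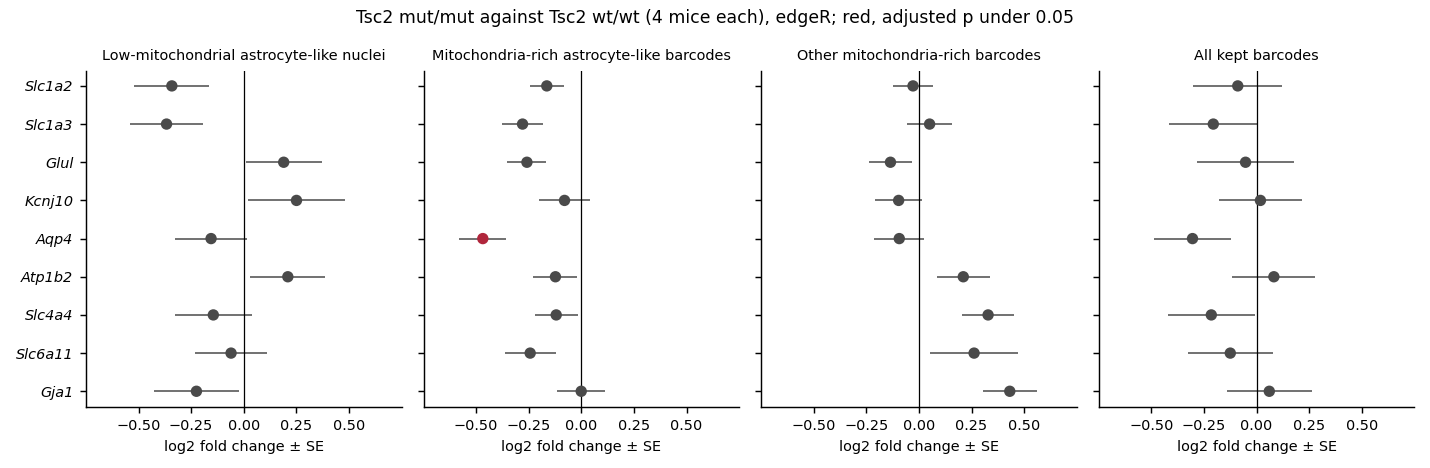
Log2 difference of Tsc2 mut/mut against Tsc2 wt/wt for the 9 genes in the astrocyte-like classes, the other mitochondria-rich barcodes and all kept barcodes, from edgeR's quasi-likelihood fits over 4 mice per genotype, with the SE as bars. Of the values drawn, only Aqp4 in the mitochondria-rich astrocyte-like barcodes, at -0.47, passed an adjusted p of 0.05.

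In the mitochondria-rich astrocyte-like barcodes Aqp4 was lower in Tsc2 mut/mut. Its level was 541, 501, 604 and 588 CPM in Tsc2 wt/wt 1 to 4 and 396, 438, 341 and 402 CPM in Tsc2 mut/mut 1 to 4. The highest Tsc2 mut/mut mouse was below the lowest Tsc2 wt/wt mouse. The log2 difference was -0.47 (SE 0.11, adjusted p = 0.0244), and Aqp4 was the 1 gene of the 9 to pass the test, which 0.741% of 6209 genes did. It was also the 1 gene of the 9 whose genotypes did not overlap, against 6.65% of all genes. With the replicate number as a block the adjusted p was 0.0757, and with barcodes of at least 500 genes the difference was -0.32 (adjusted p = 0.583). Without Tsc2 wt/wt 3 or 4, or without Tsc2 mut/mut 1 or 3, the call was lost as well (adjusted p = 0.0657 to 0.214).

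The other 8 genes were at or below 0 in this class. Slc1a3 was at 2377, 1868, 2485 and 2166 CPM in Tsc2 wt/wt and 1744, 1544, 1796 and 2024 CPM in Tsc2 mut/mut, which overlapped through 1 mouse of each genotype, with a log2 difference of -0.28 (SE 0.10, adjusted p = 0.195). Glul was at 4020, 2892, 4343 and 3830 CPM in Tsc2 wt/wt, where 1 mouse lay low, and between 2980 and 3124 CPM in Tsc2 mut/mut. Its difference was -0.26 (SE 0.09, adjusted p = 0.222). Without Tsc2 wt/wt 2, the mouse that was low for both genes, the differences were -0.35 (adjusted p = 0.0379) and -0.36 (adjusted p = 0.0111). For each gene this was the lowest adjusted p of the alternatives tried. It shows how far the result rests on that mouse and is not a call. The median over the 9 genes was -0.16, beside 0.01 over all genes tested, and the value nearest 0 was that of Gja1. The NSC/astrocyte markers in this class summed to 9779 to 11460 CPM in Tsc2 wt/wt and 8594 to 9395 CPM in Tsc2 mut/mut. None of the 20 was higher in Tsc2 mut/mut, and the ratio of the sums was 0.848. Choroid plexus markers were higher in Tsc2 mut/mut in 11 of 12, with sums of 120 to 315 CPM in Tsc2 wt/wt and 202 to 783 CPM in Tsc2 mut/mut, and inhibitory neuron or neuroblast markers in 9 of 10, with a ratio of 1.23. The part of these markers in the Aqp4 difference was not tested.

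**Figure D5:**
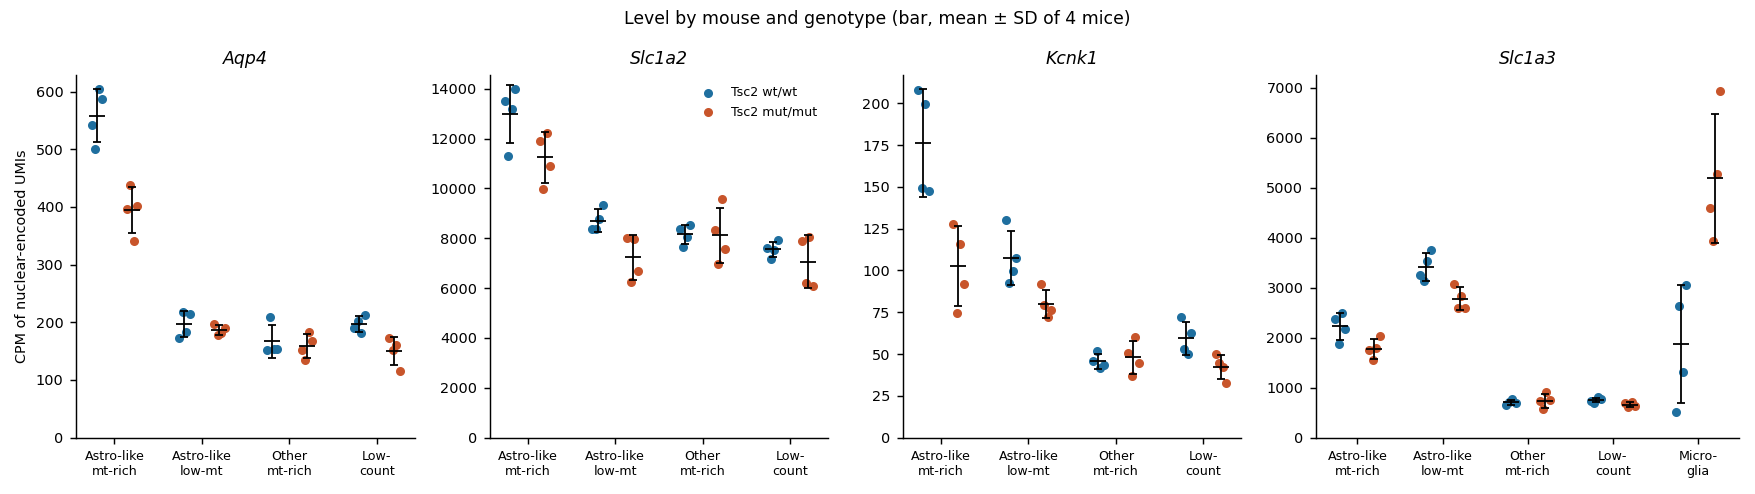
Levels of Aqp4, Slc1a2, Kcnk1 and Slc1a3 in CPM of nuclear-encoded UMIs, with 1 point per mouse coloured by genotype and the mean ± SD of 4 mice as bars, in 4 groups of barcodes and, for Slc1a3, also in microglia-like nuclei. Kcnk1 is a potassium channel gene of the transport list described below, and in the mitochondria-rich astrocyte-like barcodes the Aqp4 points of Tsc2 mut/mut, 341 to 438 CPM, lie below those of Tsc2 wt/wt, 501 to 604 CPM.

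The difference did not extend to Aqp4 elsewhere with a call. In low-mitochondrial astrocyte-like nuclei Aqp4 was at 173, 218, 184 and 214 CPM in Tsc2 wt/wt and 197, 178, 181 and 191 CPM in Tsc2 mut/mut, which overlapped, with a log2 difference of -0.16 (SE 0.17, adjusted p = 0.886). The difference between the genotype effects in the astrocyte-like classes was itself 0.30 (SE 0.28, adjusted p = 0.809) for Aqp4, and it passed the test for none of the 9 genes and 0.0588% of 8507 genes. Over all kept barcodes Aqp4 was at -0.30 (SE 0.18, adjusted p = 0.999), and none of the 9 genes passed, against 0.0155% of 12916 genes. In low-count barcodes Aqp4 was at 182 to 213 CPM in Tsc2 wt/wt and 115 to 172 CPM in Tsc2 mut/mut. The genotypes did not overlap there, without a call. The share of all genes that separate in low-count barcodes was not counted.

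In the other mitochondria-rich barcodes none of the 9 genes passed the test (0.196% of 9171 genes). Gja1 came nearest, at 138, 132, 111 and 109 CPM in Tsc2 wt/wt and 170, 116, 203 and 174 CPM in Tsc2 mut/mut, where 1 Tsc2 mut/mut mouse lay within the Tsc2 wt/wt range. Its log2 difference was 0.43 (SE 0.13, adjusted p = 0.182), and without that mouse, Tsc2 mut/mut 2, it was 0.55 (adjusted p = 0.0134). The latter was the lowest adjusted p of the alternatives tried for Gja1 and is not a call. Slc4a4 was at 0.33 (SE 0.12, adjusted p = 0.310) there.

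Among the named classes only microglia-like and oligodendrocyte-like nuclei had at least 10 nuclei in every mouse. In microglia-like nuclei 4 of the 9 genes had enough counts to test, and none passed (0.0408% of 2452 genes). The Slc1a3 levels given above corresponded to a log2 difference of 1.43 (SE 0.52, adjusted p = 0.356), and it was the 1 gene of the 4 without overlap, against 5.91% of all genes. Slc1a2, at 0.82 (SE 0.58), overlapped. NSC/astrocyte markers in this class summed to 525 to 8924 CPM in Tsc2 wt/wt and 766 to 8191 CPM in Tsc2 mut/mut, with 13 of 20 higher in Tsc2 mut/mut, while 2 of 12 microglia markers were higher there. Oligodendrocyte markers were higher in Tsc2 mut/mut in 11 of 12, ependymal in 10 of 12 and excitatory neuron in 8 of 10. For inhibitory neuron or neuroblast markers it was 5 of 10, and for dividing progenitor markers 2 of 8. The part of these markers in the Slc1a3 values was not tested.

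In oligodendrocyte-like nuclei 5 of the 9 genes were tested and none passed (0% of 3183 genes, with 312 at an unadjusted p under 0.05). Glul was at 659, 547, 550 and 384 CPM in Tsc2 wt/wt and 645, 1018, 716 and 890 CPM in Tsc2 mut/mut. The genotypes overlapped through 1 mouse of each, and the log2 difference was 0.55 (SE 0.21, adjusted p = 0.357). In this class 18 of 20 NSC/astrocyte, 12 of 12 microglia and 9 of 10 excitatory neuron markers were higher in Tsc2 mut/mut. Of the oligodendrocyte markers 7 of 12 were. The part of these markers in the Glul values was not tested.

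A list of 45 other genes of glutamate and GABA handling, the sodium pump and potassium channels, bicarbonate and proton transport and the Aqp4 anchoring complex gave the surroundings of the 9 genes. Between barcodes under 20% and of 40% or more mitochondrial share, 39 were tested, of which 13 were higher and 16 lower in the former, where 79% of all genes differed and 39.3% were lower. As with the 9 genes, genes of one role lay in both directions between the astrocyte-like classes. For glutamate and GABA, Slc7a11, the cystine-glutamate exchanger, was at 424 CPM in low-mitochondrial and 132 CPM in mitochondria-rich astrocyte-like barcodes (higher in 8 of 8 mice), and Glud1, glutamate dehydrogenase, was at 516 and 678 CPM (0 of 8). For potassium, the channels Kcnn3 (176 and 26.6 CPM) and Kcnk10 (98.2 and 12.5 CPM) were higher in the nuclei of every mouse, and the sodium pump genes Atp1b1 (63.6 and 177 CPM) and Fxyd1 (61.8 and 342 CPM) were lower in every mouse, as Atp1b2 was.

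For acid and bicarbonate, carbonic anhydrase Car2 was lower in the nuclei of every mouse, at 79.2 CPM against 403 CPM, and Slc4a3 was at 50.2 and 39.3 CPM (higher in 6 of 8). Dtna, a dystrobrevin of the complex that anchors Aqp4 at the endfoot, was higher in the nuclei of every mouse, at 2097 CPM against 181 CPM, the opposite of Aqp4 itself. Of the 34 listed genes tested between genotypes in the mitochondria-rich astrocyte-like barcodes, 2 passed, where 0.741% of 6209 genes did. Both were, like Aqp4, lower in Tsc2 mut/mut, and 1 of them was the potassium leak channel gene Kcnk1. Kcnk1 was at 147 to 208 CPM in Tsc2 wt/wt and at 74.6 to 128 CPM in Tsc2 mut/mut, which did not overlap. The log2 difference was -0.67 (SE 0.15, adjusted p = 0.0192). Leaving out Tsc2 wt/wt 1 or 3 or Tsc2 mut/mut 2 ended the call (adjusted p = 0.0794 to 0.157), as did barcodes of at least 500 genes (adjusted p = 0.645). None of the listed genes passed in low-mitochondrial astrocyte-like nuclei (30 tested), in all kept barcodes (42) or in the other mitochondria-rich barcodes (36).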

How the data were processed

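Nuclei were sequenced with 10x 3′ v3.1 chemistry. The authors made the deposited files, UMI counts per gene and barcode, with Cell Ranger 7.0.1 on GRCm38 (mm10), forcing 60000 barcodes per library. Whether introns were counted is not given in the sources used here. Gene lengths came from GENCODE M21 on the same build. Barcodes with at least 300 genes were kept, normalized, and clustered with scanpy 1.11.5 (2000 variable genes, 30 components, Leiden resolution 0.8) in 2 steps, with the 9 genes and transport list left out. Clusters of at least 50 barcodes were named where at least 3 markers of the best list were raised 1.5-fold. No other list could have more markers among the cluster's top 10 genes. The mean log2 fold of the next list had to be at most 0.8 of that of the best. The naming rule was chosen after looking at clusters and before looking at the 9 genes or at genotype. The members and lists were chosen with earlier results of these data known. The sort gate excluded doublets before droplets were made, so it does not cover nuclei that share a droplet. Scrublet called 11 barcodes (0.0290%) and was taken not to work, so no barcode was removed for it in the main results. As an alternative, the 1898 barcodes with the highest Scrublet scores, the top 5% of each library, were left out. Counts were summed per mouse and class and tested with edgeR 4.0.16 (quasi-likelihood, TMM, Benjamini-Hochberg, adjusted p threshold 0.05) in R 4.3.3, with DESeq2 1.42.0 as an alternative. Genes are named as the 9 genes, those of the transport list highest by mean level within each role or called by genotype, and the 2 genes nearest each of the 9 by correlation. On simulated counts, 58% of 2-fold changes were recovered in the low-mitochondrial and 71% in the mitochondria-rich astrocyte-like class. Of the simulated calls, 13 of 158 and 11 of 171 were false, and changes smaller than 2-fold were not simulated. With 4 mice per genotype an exact permutation test of 1 value cannot go below p = 0.0286, so none is given. Some genes of the transport list are not reported here.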

Additional observations from a re-analysis of the deposited data

Results flagged for a closer look

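For each of the 9 genes the levels of the 4 mice of a genotype were searched for 1 mouse far from the other 3 by Dixon's ratio, in 54 groups, of which 6 had one. Chance alone flags about 1 in 20 groups. In low-mitochondrial astrocyte-like nuclei Kcnj10 was at 190 CPM in Tsc2 wt/wt 3, and the next mouse was at 107 CPM. In mitochondria-rich astrocyte-like barcodes Atp1b2 was at 955 CPM in Tsc2 mut/mut 4, with the next at 805 CPM. The other 4 were over all kept barcodes: Gja1 was high in Tsc2 wt/wt 3 at 230 CPM and in Tsc2 mut/mut 3 at 213 CPM, Slc6a11 was high in Tsc2 mut/mut 3 at 234 CPM, and Kcnj10 was low in Tsc2 mut/mut 1 at 183 CPM. Tsc2 wt/wt 3 and Tsc2 mut/mut 3 are thus each the far mouse in 2 of the 6.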

How the results depend on the processing

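In low-mitochondrial astrocyte-like nuclei none of the 9 genes was called under any alternative. Genes called over the whole table were 49 with DESeq2, 116 with no filter on low counts, 11 with barcodes of at least 500 genes, 2 with each nucleus limited to a mitochondrial share under 20%, and 0 to 127 when 1 mouse was left out, the last without Tsc2 wt/wt 2. In mitochondria-rich astrocyte-like barcodes the count of the 9 genes called was 0 with at least 500 genes, at Leiden resolution 0.4, with low-count barcodes in place of the class (chosen after seeing the data) and with the replicate block, and 0 to 3 when 1 mouse was left out. All genes called were 3, 23 and 27 under the first 3, and 15 to 84 with 1 mouse left out. For Aqp4 the log2 difference was -0.37 (adjusted p = 0.126) at resolution 0.4, -0.60 (adjusted p = 0.00253) at resolution 1.6 and -0.35 (adjusted p = 0.296) in low-count barcodes. Over all kept barcodes the genes called were 7 with DESeq2, 0 with at least 500 genes, 0 with the block and 0 to 3 with 1 mouse left out. With 1 mouse left out, other mitochondria-rich barcodes gave 0 to 1 of the 9 and 10 to 129 genes, microglia-like nuclei 0 to 72, oligodendrocyte-like nuclei 0 to 115, the difference of genotype effects 2 to 65, and the split by mitochondrial share 6 to 7 of the 9 and 7630 to 9874 genes. The highest counts in the microglia-like, oligodendrocyte-like and difference fits came without Tsc2 wt/wt 2. The cause was not tested.

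Mice of both genotypes carry the numbers 1 to 4. The deviations of the 4 same-numbered pairs correlated at -0.35 to 0.23 in low-mitochondrial and -0.29 to -0.11 in mitochondria-rich astrocyte-like barcodes. No differently numbered pairs were set beside them and the labels do not say, so whether the numbers pair the mice is not known. With the replicate block Aqp4 was at -0.46 (adjusted p = 0.0757), all genes called in that class were 40, in the other mitochondria-rich barcodes 15 and in low-mitochondrial astrocyte-like nuclei 0. Of the members detected per barcode, the mitochondria-rich class held 0.54 more after thinning and 1.36 fewer without it (-1.36). With mitochondrial UMIs in the total the Slc1a2 ratio was 0.13 in place of -0.61, and that of Slc6a11 0.67. Of the other log2 values over alternatives, the sign changed in 2 of 162 in the low-mitochondrial and 12 of 209 in the mitochondria-rich astrocyte-like class. The median of 888 to 1324.5 UMIs per kept barcode limits what could be detected in single barcodes.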
